A study of Mus musculus with 7 samples.

Results

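The nuclear genes of respiratory chain complexes III and IV, of cytochrome c and of the ATP synthase were examined in the cerebral cortex of mice without the creatine transporter. Genes were selected by symbol alone: every symbol beginning with *Uqcr* or *Atp5*, the symbols *Cyc1* and *Cycs*, and every symbol made of *Cox*, a digit from 4 to 8 and a further letter. This rule selected 45 of the 24346 genes in the deposited table, of which 9 belong to complex III, 1 is cytochrome c, 18 belong to complex IV and 15 to the ATP synthase. The remaining 2, *Atp5s* and *Atp5sl*, share the name without encoding a subunit. Cortical RNA was sequenced from 4 knockout (CrT-/y) and 3 wild-type (CrT+/y) males, all at postnatal day 100 and on a C57BL/6J background, with 1 library per animal. The knockout is whole-body: exons 5 to 7 of the X-linked gene *Slc6a8* are deleted in hemizygous males, and the wild-type animals are littermates. Values are FPKM, the fragments scaled to exon length and to the mapped fragments of the library, so that levels of different genes can be compared. The table holds no read counts, and the read totals that the study lists per replicate were not used here, so no counting interval is given. Bulk cortex mixes many cell types, and in such samples fewer cells of a type cannot be told apart from less RNA per cell.

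Complex III passes electrons from ubiquinol to cytochrome c, a small soluble protein of the intermembrane space. Complex IV takes them from cytochrome c to oxygen, and both complexes pump protons across the inner mitochondrial membrane. The ATP synthase lets the protons flow back through a ring of c subunits in its membrane part (Fo), and a central stalk carries the rotation to the catalytic part (F1), where ATP is made. In brain and muscle, creatine kinase can pass the phosphate of this ATP to creatine, the molecule that the *Slc6a8* product carries into cells.

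*Slc6a8* was at 12.4, 14.9, 14.7 and 15.7 FPKM in CrT-/y animals 0 to 3 and at 32.3, 29.6 and 28.0 FPKM in CrT+/y animals 1 to 3 (log2 fold change -1.05, SE 0.0871, adjusted p = 0.0024 with limma), so each animal matched its label. The summed level of 4 markers of excitatory neurons was 1452 to 1572 FPKM in CrT-/y and 1465 to 1784 FPKM in CrT+/y animals. Markers of ependyma and choroid plexus summed to 400.4 FPKM in CrT+/y animal 2, mostly *Ttr* at 379 FPKM, and to 5.73 to 53.3 FPKM in the other animals, and the part of this tissue in the results was not tested. Muscle markers summed to 2.96 to 4.85 FPKM in all animals, and *Ucp1*, the marker of brown fat, stayed between 0 and 0.0522 FPKM. Among 4 testis markers, *Prm2* and *Tnp1* were listed at 0 in every animal, and *Prm1* was at 0 to 0.889 FPKM. *Ddx4* was at 0.893 to 1.14 FPKM in CrT-/y and at 1.28 to 1.42 FPKM in CrT+/y animals (adjusted p = 0.20 with limma). Its groups did not overlap, and 15.0% of all tested genes were likewise lower without overlap. CrT+/y animal 3 stood apart from the other CrT+/y animals in the genes described here, and the results that rest on it are given with and without it.

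Most of these genes were among the most abundant transcripts of the cortex. *Cox8a*, a small membrane subunit of complex IV, had the highest mean over the 7 animals (803 FPKM, above 99.9% of all genes), followed by *Cox6a1* (771 FPKM) and *Cox4i1* (652 FPKM). *Atp5b*, the catalytic β subunit of the ATP synthase, led its complex with 602 FPKM, and *Uqcr10*, a small subunit of complex III, led its own with 252 FPKM. The ranges over animals overlapped between *Cox8a* (671 to 893 FPKM) and *Cox6a1* (684 to 839.8 FPKM), so the order of these neighbours was not separated by the spread. *Cycs* was lower, at a mean of 44.0 FPKM. At the other end, *Cox7b2* and *Cox8b* had means of 0.455 and 0.444 FPKM and *Cox8c* was listed at 0 in every animal. These 3 isoform genes did not reach the mean of 1 FPKM set for testing, which left 42 genes in the comparison of genotypes. The FPKM of all 45 genes added up to 2.63, 2.58, 2.57 and 2.71% of the table's sum in CrT-/y animals 0 to 3, and to 2.28, 2.23 and 2.65% in CrT+/y animals 1 to 3. Thus CrT+/y animals 1 and 2 had the lowest shares, while animal 3 lay within the range of the CrT-/y animals.

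To compare the genotypes, each gene with a mean of at least 1 FPKM was tested with limma on log2(FPKM + 0.1), and genes with an adjusted p-value under 0.1 over all 12988 tested genes were called. None of the 42 genes was called higher in CrT-/y animals, where the share over all tested genes was 2.9%. *Atp5f1*, a stalk subunit of the ATP synthase, was called lower, where the share over all tested genes was 7.25%. At an unadjusted limma p under 0.05, 10 of the 42 were higher and 3 lower, beside 8.19% and 16.8% of all tested genes. The fitted difference was above 0 in 31 of the 42, beside 41.8% of all tested genes, with a median log2 fold change of 0.08 for the 42 and -0.03 for all tested genes. By complex, the median was 0.07 in complex III (7 of 9 above 0), 0.09 in complex IV (11 of 15) and 0.14 in the ATP synthase (13 of 15). The 4 CrT-/y values lay entirely above the 3 CrT+/y values in 1 gene, *Atp5c1*, beside 6.57% of all tested genes. They lay entirely below in *Atp5f1* and *Atp5h*, beside 15.0% of all tested genes. Scaling and weighting moved the counts. With array weights 10 were called higher and 2 lower, beside 4.64% and 9.97% of all tested genes. After upper quartile scaling 3 were higher and none lower (beside 5.71% and 3.56%), after quantile normalization 1 was higher and none lower (beside 4.07% and 4.27%), and with a minimum mean of 5 FPKM none was higher and 3 were lower (beside 3.43% and 11.1%).

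**Figure D1:**
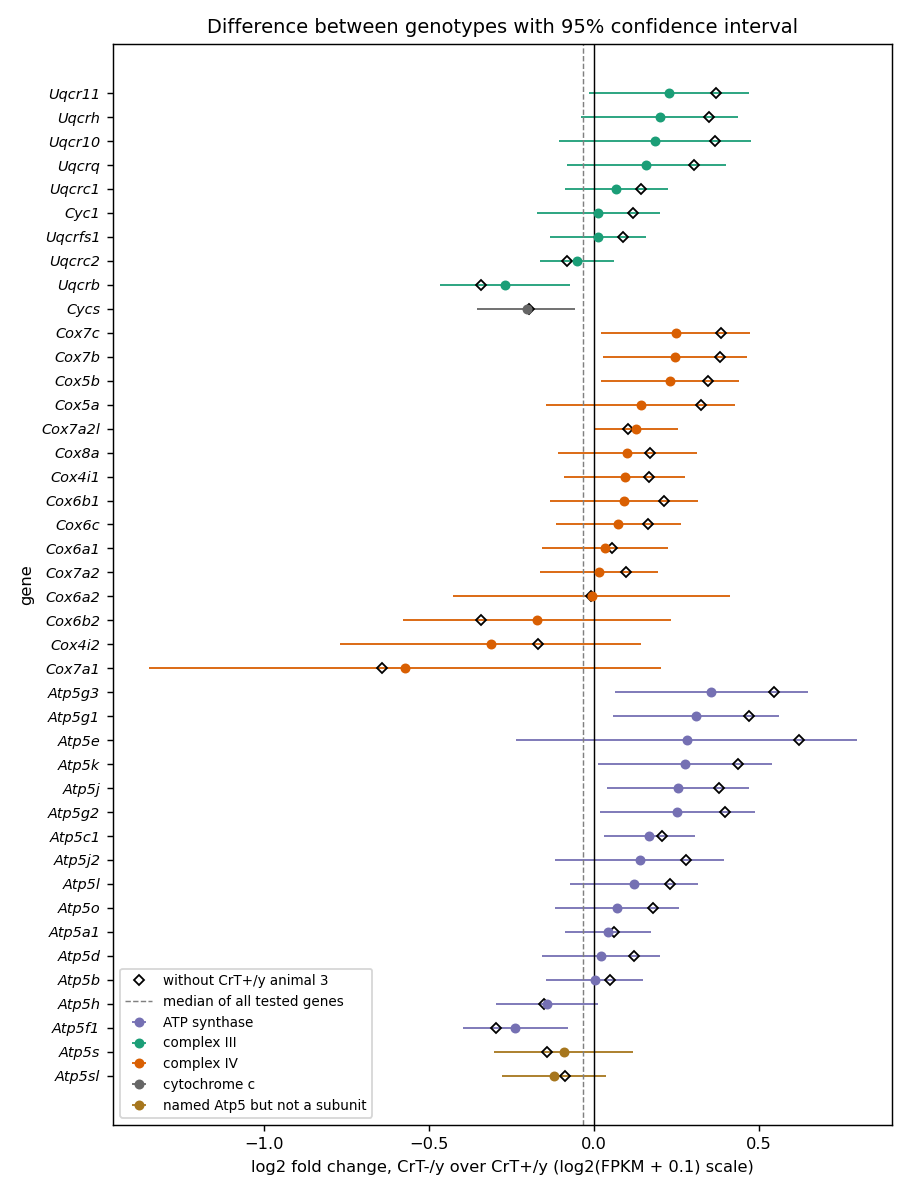
Difference between CrT-/y and CrT+/y animals for each of the 42 tested genes. The horizontal axis is the log2 fold change on the log2(FPKM + 0.1) scale, filled points are the fit with all 7 animals, bars are 95% confidence intervals, open diamonds are the fit without CrT+/y animal 3, and the dashed line is the median of all tested genes (-0.03). Of the filled points, 31 lie above 0, and for most of these the open diamond lies further to the right.

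These counts depended on which wild-type animals entered the comparison. In 24 of the 42 genes (57.1%) the 2 lowest values among the 7 animals were those of CrT+/y animals 1 and 2, an order found in 13.0% of all tested genes. CrT+/y animal 3 was the highest of the CrT+/y animals in 31 of the 42 (73.8%, beside 33.4% of all tested genes) and the highest of all 7 in 18 (42.9%, beside 17.5%). The reverse order, with CrT+/y animals 1 and 2 as the 2 highest, occurred in 3 of the 42, namely *Atp5f1*, *Uqcrb* and *Uqcrc2*, and in 20.4% of all tested genes. The median log2 deviation of the 42 genes from their mean over the 7 animals was -0.09, -0.17 and 0.14 in CrT+/y animals 1 to 3 and 0.05, 0.02, 0.01 and 0.08 in CrT-/y animals 0 to 3. Accordingly, the median SD of these genes on the log2 scale was 0.187 among CrT+/y and 0.0664 among CrT-/y animals, beside 0.132 and 0.0829 over all tested genes. Without CrT+/y animal 3, 21 of the 42 were called higher and 3 lower with limma, beside 10.3% and 18.4% of all genes tested in that fit. The medians were then 0.14 in complex III, 0.16 in complex IV and 0.23 in the ATP synthase. Without CrT+/y animal 2 they were -0.001, 0.004 and 0.07, and without CrT+/y animal 1 they were 0.04, 0.09 and 0.09. Set against CrT+/y animal 3 alone, a difference with no test, the CrT-/y animals had negative medians in the 3 complexes (-0.13, -0.04 and -0.09).

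**Figure D2:**
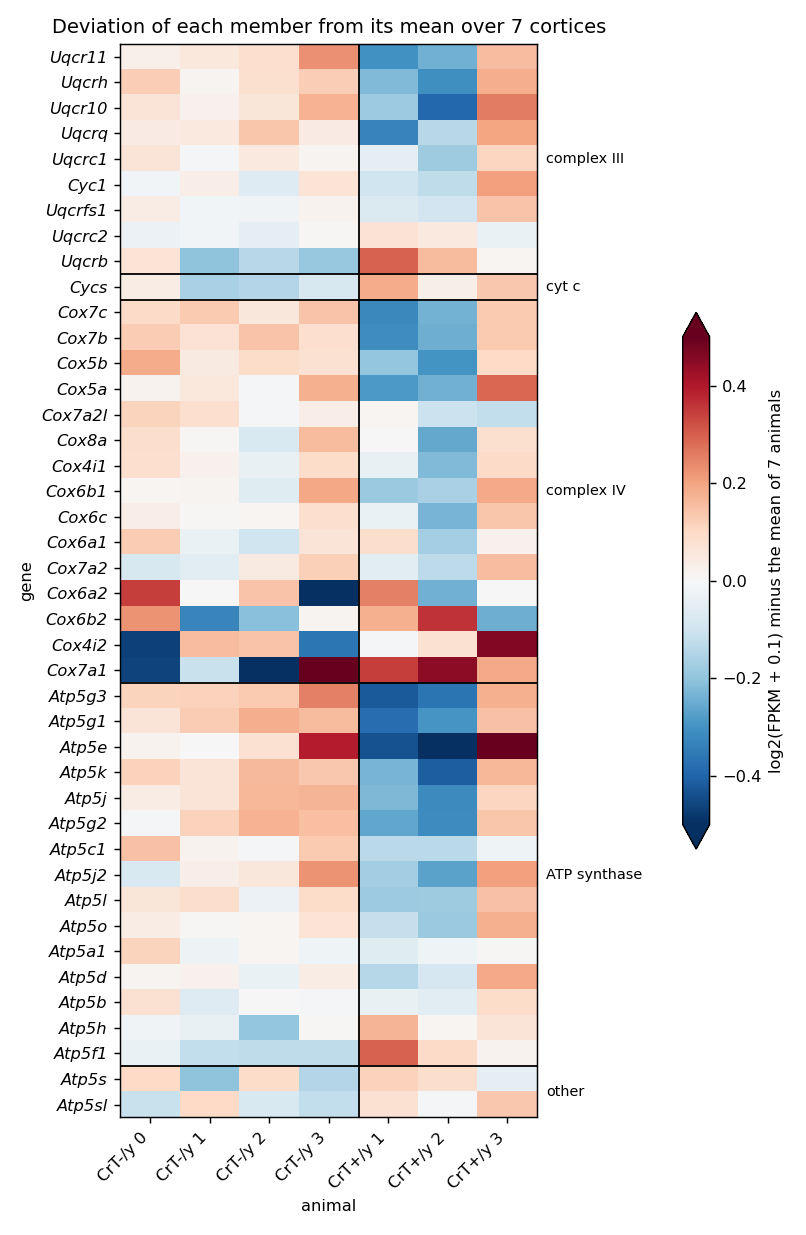
Log2 deviation of each of the 42 tested genes (rows, grouped by complex) from its mean over the 7 animals (columns). The columns of CrT+/y animals 1 and 2 are low in most rows and the column of CrT+/y animal 3 is high, with median deviations of -0.09, -0.17 and 0.14.

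In complex III, none of the 9 genes was called with all 7 animals. *Uqcrb*, a subunit near the ubiquinone site, had the smallest p-value. It was at 213, 177, 184 and 178 FPKM in CrT-/y animals 0 to 3 and at 249.5, 226 and 205 FPKM in CrT+/y animals 1 to 3. Its mean was 188 ± 16.9 FPKM (SD, n = 4) against 227 ± 22.4 FPKM (SD, n = 3), a log2 fold change of -0.27 (SE 0.0876, adjusted p = 0.11 with limma). CrT-/y animal 0 overlapped the CrT+/y range, and the other 3 lay below it. It was called lower without CrT+/y animal 3 (-0.34, adjusted p = 0.03 with limma) and without CrT-/y animal 0 (-0.33, adjusted p = 0.09 with limma). A gene model on the opposite strand, *Gm10767*, overlaps *Uqcrb*.

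Other small subunits of complex III had fitted differences of the opposite sign. *Uqcr11* was at 245, 249, 255 and 282 FPKM in CrT-/y animals 0 to 3 and at 195, 203 and 268 FPKM in CrT+/y animals 1 to 3 (log2 fold change 0.23, SE 0.107, adjusted p = 0.22 with limma). *Uqcrh*, the hinge protein that helps cytochrome c to dock, was at 225, 209, 218 and 225 FPKM and at 177, 167 and 234 FPKM in the same order (0.20, SE 0.106, adjusted p = 0.27 with limma). *Uqcr10* was at 261, 253, 260.4 and 282 FPKM and at 219.96, 190.1 and 298 FPKM (0.19, SE 0.13, adjusted p = 0.40 with limma). In each of them CrT+/y animals 1 and 2 were below every CrT-/y animal, and CrT+/y animal 3 was within or above the CrT-/y range. Without CrT+/y animal 3 they were called higher, with log2 fold changes of 0.37, 0.35 and 0.37 and adjusted p-values of 0.011, 0.007 and 0.015 with limma, as were *Uqcrq* (0.30, adjusted p = 0.018 with limma) and *Uqcrc1* (0.14, adjusted p = 0.094 with limma). None of these 5 was called without CrT+/y animal 1 or 2. *Uqcr11*, *Uqcrh* and *Uqcr10* were at 0.17, 0.10 and 0.04 without CrT+/y animal 2 (adjusted p = 0.43, 0.59 and 0.86 with limma) and at 0.14, 0.15 and 0.15 without CrT+/y animal 1 (adjusted p = 0.53, 0.54 and 0.64 with limma).

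The redox subunits and core proteins of complex III had fitted differences nearer 0. *Cyc1*, the cytochrome c1 that hands the electron to cytochrome c, was at 94.3, 97.2, 91.1 and 99.8 FPKM in CrT-/y animals 0 to 3 and at 88.8, 87.1 and 109.6 FPKM in CrT+/y animals 1 to 3. The highest and the lowest of these values were both from CrT+/y animals, and the log2 fold change was 0.01 (95% interval -0.17 to 0.20, adjusted p = 0.93 with limma). *Uqcrfs1*, the Rieske iron-sulfur protein, had a log2 fold change of 0.01 (95% interval -0.13 to 0.16). The core proteins *Uqcrc1* and *Uqcrc2* were at 0.07 and -0.05, with 95% intervals of -0.09 to 0.225 and -0.16 to 0.06. The sign of *Uqcrc2* turned under upper quartile scaling (0.01).

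*Cycs*, which encodes the cytochrome c that shuttles between complexes III and IV, was lower in CrT-/y animals by a fit that did not reach the threshold. Its level was 44.9, 39.2, 39.6 and 41.5 FPKM in CrT-/y animals 0 to 3 and 49.9, 44.7 and 48.1 FPKM in CrT+/y animals 1 to 3. The groups overlapped only through CrT-/y animal 0 and CrT+/y animal 2, which differed by less than 1 FPKM. The mean was 41.3 ± 2.62 FPKM (SD, n = 4) against 47.6 ± 2.66 FPKM (SD, n = 3), a log2 fold change of -0.20 (SE 0.0657, adjusted p = 0.11 with limma). Here CrT+/y animal 3 did not stand apart, and without it the log2 fold change was -0.195 (adjusted p = 0.097 with limma).

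None of the 15 tested genes of complex IV was called. The 3 with the smallest p-values were the nuclear subunits *Cox7b*, *Cox5b* and *Cox7c*, which surround the catalytic core encoded by mitochondrial DNA. *Cox7b* was at 85.4, 82.2, 86.4 and 83.0 FPKM in CrT-/y animals 0 to 3 and at 63.1, 66.1 and 85.8 FPKM in CrT+/y animals 1 to 3 (log2 fold change 0.25, SE 0.0965, adjusted p = 0.16 with limma). *Cox5b* was at 459, 416, 430.4 and 425 FPKM and at 353, 328 and 432 FPKM (0.23, SE 0.0927, adjusted p = 0.17 with limma). *Cox7c* was at 432, 442, 421 and 446 FPKM and at 323, 344 and 443 FPKM (0.25, SE 0.1, adjusted p = 0.17 with limma). For each of the 3, CrT+/y animal 3 was within the CrT-/y range and the other 2 CrT+/y animals were below it. Without CrT+/y animal 3 the adjusted p-values with limma were 0.0043, 0.0098 and 0.0056, and *Cox5a* (0.325, adjusted p = 0.013 with limma) and *Cox6b1* (0.21, adjusted p = 0.074 with limma) were also called higher. With all 7 animals *Cox5a* was at 0.14 (adjusted p = 0.52 with limma) and *Cox6b1* at 0.09 (adjusted p = 0.60 with limma). *Cox7b*, *Cox5b* and *Cox7c* were at 0.195, 0.15 and 0.20 without CrT+/y animal 2 (adjusted p = 0.33, 0.36 and 0.33 with limma) and *Cox5a* and *Cox6b1* at 0.06 and 0.04 (adjusted p = 0.83 and 0.87 with limma). These 5 were at 0.16, 0.20, 0.16, 0.04 and 0.03 without CrT+/y animal 1, and none was called (adjusted p = 0.36 to 0.92 with limma).

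*Cox8a*, the most abundant of the 45 genes, was at 849.9, 803, 760.1 and 893 FPKM in CrT-/y animals 0 to 3 and at 800.2, 671 and 846 FPKM in CrT+/y animals 1 to 3. The groups overlapped, with CrT+/y animal 2 lowest, and the log2 fold change was 0.10 (95% interval -0.11 to 0.31, adjusted p = 0.53 with limma). *Cox6c* was similar (0.07, 95% interval -0.12 to 0.26). *Cox7a2l* had CrT+/y animal 3 as its lowest value. Its values of 153, 149.99, 141 and 145 FPKM in CrT-/y animals 0 to 3 met those of 143, 131 and 129.8 FPKM in CrT+/y animals 1 to 3 only at CrT+/y animal 1. Its log2 fold change was 0.13 (SE 0.0568, adjusted p = 0.20 with limma), and it was called higher under upper quartile scaling (0.19, adjusted p = 0.078 with limma) and not without CrT+/y animal 3 (0.10, adjusted p = 0.22 with limma).

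Several subunits of complex IV exist as isoforms known from particular tissues, and the cortex expressed mainly the broadly expressed form in both genotypes. *Cox4i2*, an isoform known from lung and from oxygen sensing, made up 0.163 to 0.28% of the summed *Cox4i* FPKM in CrT-/y and 0.25 to 0.321% in CrT+/y animals. The muscle isoforms *Cox6a2* and *Cox7a1* made up 0.891 to 1.55% and 0.443 to 1.59% of their families in CrT-/y animals, and 1.25 to 1.48% and 1.16 to 1.51% in CrT+/y animals. The sum for *Cox7a1* here includes *Cox7a2l*, and of *Cox7a1* and *Cox7a2* alone it made up 1.02 to 3.54% and 2.42 to 3.5%. *Cox6b2*, known from testis, made up 0.596 to 0.89% and 0.563 to 1.1%. These ranges overlapped between genotypes in each family. Muscle markers summed to at most 4.85 FPKM and testis markers to at most 2.0 FPKM in any of these animals.

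Single isoforms did not pass the test. The broadly expressed *Cox4i1*, *Cox6a1*, *Cox6b1* and *Cox7a2* had log2 fold changes of 0.09, 0.03, 0.09 and 0.02, and the minor forms *Cox4i2*, *Cox6a2*, *Cox6b2* and *Cox7a1* had -0.31, -0.006, -0.17 and -0.57, with adjusted p-values of 0.33 or more with limma throughout. *Cox4i2* ranged from 1.13 to 1.79 FPKM in CrT-/y and from 1.59 to 2.24 FPKM in CrT+/y animals. *Cox6b2* ranged from 1.75 to 2.62 FPKM and from 1.86 to 2.88 FPKM. *Cox7a1* had the widest interval (95% interval -1.35 to 0.20), with 1.80, 2.33, 1.11 and 4.17 FPKM in CrT-/y animals 0 to 3 and 3.23, 3.47 and 2.89 FPKM in CrT+/y animals 1 to 3. Its highest and its lowest values were both from CrT-/y animals. At such low levels the added 0.1 compresses differences between values. The fit compares means of logs and need not equal the ratio of mean FPKM, which was 73.6% for *Cox7a1*. *Cox8b*, the muscle form of *Cox8*, was at 1.62 FPKM in CrT+/y animal 2, the animal with the high choroid plexus markers, at 0.2996 to 0.774 FPKM in CrT-/y animals 0 to 2, and listed at 0 in the other 3.

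In the F1 part of the ATP synthase, which holds the catalytic sites, the 5 genes had log2 fold changes between 0.003 and 0.28 and none was called. *Atp5c1*, the γ subunit that forms the rotating shaft, was the gene whose CrT-/y values were all above the CrT+/y values. It was at 173, 159, 155 and 171 FPKM in CrT-/y animals 0 to 3 and at 142, 142 and 154 FPKM in CrT+/y animals 1 to 3, and the nearest values of the 2 groups differed by little more than 1 FPKM. The mean was 165 ± 8.97 FPKM (SD, n = 4) against 146 ± 6.75 FPKM (SD, n = 3), a log2 fold change of 0.17 (SE 0.0614, adjusted p = 0.14 with limma). It was called higher under upper quartile scaling (adjusted p = 0.073 with limma) and without CrT+/y animal 3 (adjusted p = 0.045 with limma).

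The catalytic subunits themselves had fitted differences close to 0. *Atp5b* was at 633, 575, 603 and 597 FPKM in CrT-/y animals 0 to 3 and at 585, 578 and 641 FPKM in CrT+/y animals 1 to 3, with overlapping groups and CrT+/y animal 3 highest. Its log2 fold change was 0.003 (95% interval -0.14 to 0.15, adjusted p = 0.99 with limma), and that of the α subunit *Atp5a1* was 0.04 (95% interval -0.09 to 0.175). *Atp5d*, the δ subunit, was at 0.02 (95% interval -0.16 to 0.20). *Atp5e*, the ε subunit, had the largest SE of the complex on the log2 scale. It was at 155, 153, 162 and 201 FPKM in CrT-/y animals 0 to 3 and at 113, 103 and 219.7 FPKM in CrT+/y animals 1 to 3 (0.28, SE 0.229, adjusted p = 0.48 with limma). Both ends of this range were CrT+/y animals, and without CrT+/y animal 3 the log2 fold change was 0.62 (adjusted p = 0.011 with limma). It was 0.145 without CrT+/y animal 1 (adjusted p = 0.80 with limma), and without CrT+/y animal 2 it was 0.08 (adjusted p = 0.87 with limma).

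In the Fo part and the stalks, 8 of 10 genes had fitted differences above 0 and 2 below, with a median of 0.20. *Atp5f1*, which encodes the b subunit of the peripheral stalk (GRCm38, chromosome 3, 105942698 to 105960099, minus strand), was the only gene of the 45 past the threshold. It was at 123, 116, 115 and 115 FPKM in CrT-/y animals 0 to 3 and at 154, 134 and 128 FPKM in CrT+/y animals 1 to 3. The groups did not overlap, and 3 of the CrT-/y animals lay within 1 FPKM of each other. The mean was 117 ± 3.91 FPKM (SD, n = 4) against 139 ± 14.0 FPKM (SD, n = 3), a log2 fold change of -0.24 (SE 0.0707, adjusted p = 0.09 with limma). An exact permutation test (two-sided) over the 35 splits gave p = 0.0286, the smallest it can give. The call was close to the threshold and was lost when any animal other than CrT+/y animal 3 was left out (adjusted p = 0.13 to 0.22 with limma), while without CrT+/y animal 3 it remained (log2 fold change -0.30, adjusted p = 0.02 with limma). It was also lost after quantile normalization, upper quartile scaling or median centring (adjusted p = 0.13, 0.14 and 0.14 with limma), with the same sign. *Wdr77* and *Gm42890* overlap *Atp5f1* on the opposite strand, and whether the counting used strand is not given in the sources used here.

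*Atp5h*, the d subunit that sits beside it in the peripheral stalk, was singled out after its values were seen, because its groups did not overlap. It was at 354, 349, 313 and 359 FPKM in CrT-/y animals 0 to 3 and at 403, 360.2 and 374 FPKM in CrT+/y animals 1 to 3. The highest CrT-/y and the lowest CrT+/y animal differed by about 1 FPKM, and the log2 fold change was -0.14 (SE 0.0692, adjusted p = 0.24 with limma). Other stalk genes were on the other side of 0. *Atp5o*, the OSCP that caps the stalk, was at 0.07 (95% interval -0.12 to 0.26), and *Atp5j*, coupling factor 6, at 0.255 (95% interval 0.04 to 0.47, adjusted p = 0.15 with limma). *Atp5j* overlaps *Gabpa* on the opposite strand.

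The c subunit that forms the proton-driven ring is encoded by 3 genes whose mature proteins are the same. *Atp5g1* was at 153, 159, 165 and 163 FPKM in CrT-/y animals 0 to 3 and at 112, 119 and 161 FPKM in CrT+/y animals 1 to 3 (log2 fold change 0.31, SE 0.112, adjusted p = 0.14 with limma). *Atp5g2* was at 129, 140.2, 146 and 144 FPKM and at 108, 104 and 142 FPKM (0.25, SE 0.105, adjusted p = 0.18 with limma). *Atp5g3* was at 286, 287, 290.2 and 316 FPKM and at 198, 205 and 299.7 FPKM (0.36, SE 0.13, adjusted p = 0.14 with limma). In each of the 3 genes CrT+/y animals 1 and 2 lay well below every CrT-/y animal and CrT+/y animal 3 lay among them. Summed over the 3 genes the level was 568, 587, 601 and 622 FPKM in CrT-/y animals and 418, 428 and 604 FPKM in CrT+/y animals. Each gene kept a similar share of this sum in every animal. *Atp5g3* made up 48.2 to 50.7% of it in CrT-/y and 47.4 to 49.7% in CrT+/y animals, *Atp5g1* 26.2 to 27.5% and 26.8 to 27.7%, and *Atp5g2* 22.7 to 24.3% and 23.6 to 25.8%. Without CrT+/y animal 3 the 3 genes were called higher, at log2 fold changes of 0.47, 0.40 and 0.55 and adjusted p-values of 0.0036, 0.0071 and 0.0034 with limma. They were at 0.25, 0.17 and 0.275 without CrT+/y animal 2 and at 0.21, 0.20 and 0.25 without CrT+/y animal 1, and none was called (adjusted p = 0.29 to 0.41 with limma).

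*Atp5k*, the e subunit that holds the dimers of the enzyme together, showed the same order and was singled out after its values were seen. It was at 525, 506, 542 and 531 FPKM in CrT-/y animals 0 to 3 and at 413, 364 and 543 FPKM in CrT+/y animals 1 to 3, so that CrT+/y animals held both the lowest values and the highest. The mean was 526 ± 15.0 FPKM (SD, n = 4) against 440.1 ± 92.7 FPKM (SD, n = 3), a log2 fold change of 0.28 (SE 0.118, adjusted p = 0.19 with limma). The neighbouring membrane subunits *Atp5l* (g) and *Atp5j2* (f) were at 0.12 and 0.14, with 95% intervals of -0.07 to 0.315 and -0.12 to 0.395. *Atp5s* and *Atp5sl*, the genes that share only the name, were at 8.15 and 20.9 FPKM in CrT-/y and at 8.66 and 22.7 FPKM in CrT+/y animals on average. Their log2 fold changes were -0.09 and -0.12, with 95% intervals of -0.30 to 0.12 and -0.28 to 0.04.

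**Figure D3:**
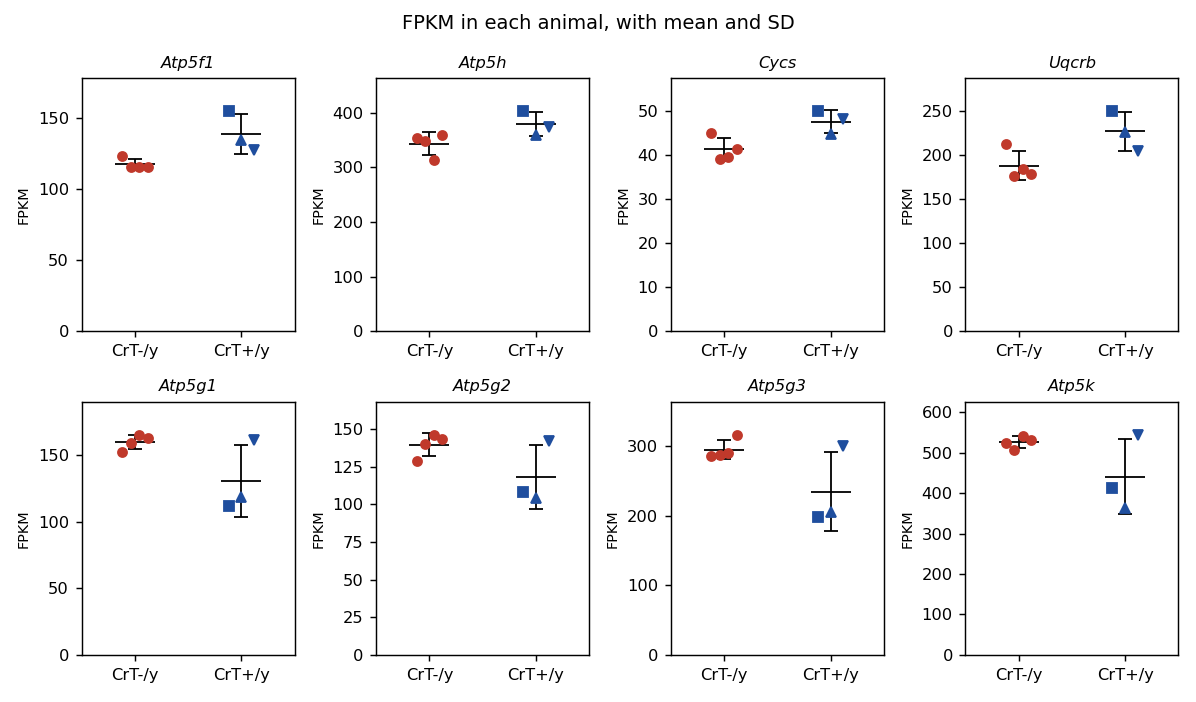
FPKM of 8 genes in each animal, with the mean (wide line) and SD of each genotype, and CrT+/y animals 1, 2 and 3 drawn as a square, an upward and a downward triangle. In *Atp5f1*, *Atp5h*, *Cycs* and *Uqcrb* the CrT-/y animals tend to the lower values, and in the 3 *Atp5g* genes and *Atp5k* CrT+/y animals 1 and 2 lie below all others while CrT+/y animal 3 lies level with the CrT-/y animals.

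The c subunit genes and *Atp5k*, which was chosen after its values were seen, shared 1 order of animals, found in 24 of the 42 genes. Their promoters, after that of the called gene *Atp5f1*, are shown to let the sequences be compared. Each runs from 250 bases before to 50 after the RefSeq start on GRCm38.p6. Capitals mark matches, on either strand, to motifs of factors known to act on respiratory genes: GCGC and TGCGC with any 1 letter between (NRF-1), CCGGAAG (GABP, also called NRF-2), AAGATGGC (YY1) and TGACCTT (ERR). None of these motifs contains another. All 5 genes lie on the minus strand, and the windows are chr3:105959214-105959513, chr11:96075582-96075881, chr15:102670998-102671297, chr2:73911277-73911576 and chr5:108434350-108434649 in the order shown. RefSeq lists *Atp5f1* as *Atp5pb*.
Atp5f1: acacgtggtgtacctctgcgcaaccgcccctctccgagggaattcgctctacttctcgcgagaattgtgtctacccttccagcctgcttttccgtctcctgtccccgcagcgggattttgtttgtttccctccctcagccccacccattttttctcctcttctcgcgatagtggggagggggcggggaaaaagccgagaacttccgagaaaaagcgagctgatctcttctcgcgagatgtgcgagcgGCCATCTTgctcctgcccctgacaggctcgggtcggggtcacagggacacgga
Atp5g1: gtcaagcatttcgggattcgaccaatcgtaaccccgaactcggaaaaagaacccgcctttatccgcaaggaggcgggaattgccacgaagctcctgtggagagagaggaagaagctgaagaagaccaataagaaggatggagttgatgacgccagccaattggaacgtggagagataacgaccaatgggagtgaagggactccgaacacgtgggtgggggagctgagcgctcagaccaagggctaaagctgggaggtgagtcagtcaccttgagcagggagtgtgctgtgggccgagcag
Atp5g2: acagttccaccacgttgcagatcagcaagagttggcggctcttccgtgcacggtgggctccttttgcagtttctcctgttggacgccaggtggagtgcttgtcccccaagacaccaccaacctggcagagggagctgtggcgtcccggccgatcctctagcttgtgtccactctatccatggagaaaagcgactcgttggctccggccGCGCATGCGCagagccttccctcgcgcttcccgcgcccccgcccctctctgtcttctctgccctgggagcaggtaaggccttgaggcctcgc
Atp5g3: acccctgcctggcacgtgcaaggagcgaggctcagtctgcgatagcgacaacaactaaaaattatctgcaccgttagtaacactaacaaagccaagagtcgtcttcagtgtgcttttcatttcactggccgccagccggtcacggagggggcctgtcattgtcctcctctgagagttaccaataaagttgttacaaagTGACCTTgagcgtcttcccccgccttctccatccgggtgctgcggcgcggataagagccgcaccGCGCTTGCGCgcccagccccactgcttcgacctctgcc
Atp5k: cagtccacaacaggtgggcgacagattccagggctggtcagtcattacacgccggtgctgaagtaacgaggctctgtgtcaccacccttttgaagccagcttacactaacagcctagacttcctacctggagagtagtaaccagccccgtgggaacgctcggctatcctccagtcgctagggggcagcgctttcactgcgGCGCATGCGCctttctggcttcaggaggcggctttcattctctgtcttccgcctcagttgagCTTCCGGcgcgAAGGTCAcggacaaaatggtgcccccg

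The *Atp5f1* window held the YY1 motif only, just at the start site. *Atp5g2* held the NRF-1 motif, *Atp5g3* the NRF-1 and ERR motifs, and *Atp5k* the NRF-1, GABP and ERR motifs, whereas the window of *Atp5g1* held none of the 4. No motif among those searched was found in all 3 *Atp5g* windows. The *Cycs* window, not shown, held none of the 4. Of the 45 genes, 35 had a window. The NRF-1 motif was found in 8 of them (22.9%, beside 4.6% of all 32851 windows), the GABP motif in 10 (28.6%, beside 8.86%), the YY1 motif in 4 (11.4%, beside 2.75%) and the ERR motif in 4 (11.4%, beside 4.72%). The first share counts genes that hold the motif in any of their windows, and the share beside it counts single windows. The shares are therefore not on the same unit. A match describes the letters of a window and not a bound site.

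Across all tested genes, transcript length moved with the order of the animals. Among the 42 genes, the median length was 730.2 bases in the 24 where CrT+/y animals 1 and 2 were lowest. It was 730.0 bases in the 15 with neither order and 1604 bases in the 3 with the reverse order (535 to 1896 bases). The 27 of the 42 under 1 kb had a median log2 fold change of 0.12. This was 0.01 in the 11 of 1 to 2 kb and -0.04 in the 4 of 2 to 4 kb. Over all tested genes the same classes had 0.08, 0.002 and -0.04. The 42 tested genes are short, with a median length of 736 bases beside 2959 bases over all tested genes. All 916 tested genes under 1 kb, of which 27 belong to the 42, had a median log2 fold change of 0.08. Their median deviations were -0.10, -0.13 and 0.09 in CrT+/y animals 1 to 3 and 0.02 to 0.06 in CrT-/y animals, the order seen in complexes III, IV and the ATP synthase. For the 4022 genes of 4 kb and over the median log2 fold change was -0.06. When each animal was corrected for its trend with length, the medians were 0.04 in complex III, -0.015 in complex IV and 0.09 in the ATP synthase. In that fit 25 of the 42 genes were above 0, beside 6540 of 12912 over all tested genes with a length. The median of the 42 was 0.016, beside 0.002 over all tested genes. *Atp5f1* kept its call (adjusted p = 0.095 with limma), and it was the only gene of the 42 past the threshold, where the shares over all tested genes were 4.43% higher and 5.13% lower. After this correction *Atp5g1*, which is longer than the other 2 c subunit genes, was at 0.35 and *Atp5g3* at 0.27 (both adjusted p = 0.12 with limma), while *Atp5k* was at 0.11 and *Uqcr10* at 0.04. The part of transcript length in the differences between genotypes was not tested beyond this correction.

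**Figure D4:**
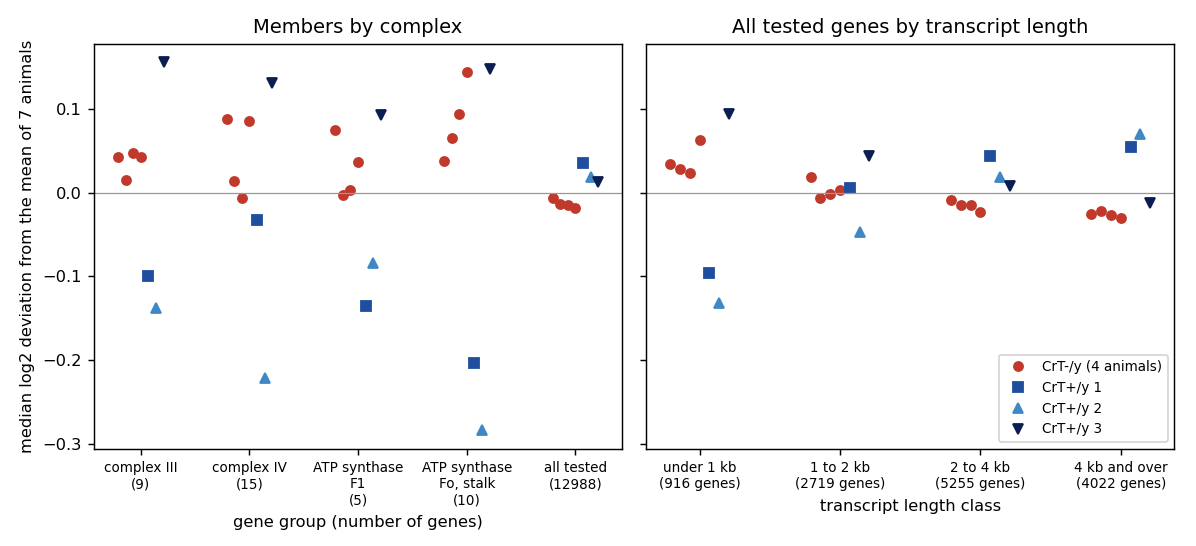
Each animal's median log2 deviation (vertical axis, from the gene's mean over all 7) for the tested genes of each complex (left) and for all tested genes by transcript length (right). In the left panel CrT+/y animals 1 and 2 are below and CrT+/y animal 3 above the CrT-/y animals in each group of the complexes, and in the right panel the same order appears in genes under 1 kb (-0.10, -0.13 and 0.09) and not in genes of 4 kb and over.

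Genes that help to build these complexes were described from lists of assembly factors. Of 27 tested assembly factors of complex IV, 4 were called lower in CrT-/y animals and none higher, beside 7.25% and 2.9% of all tested genes, with a median log2 fold change of -0.035. *Coa4*, a small cysteine-rich protein of the intermembrane space, was at 1.60, 1.42, 1.28 and 1.60 FPKM in CrT-/y animals 0 to 3 and at 2.24, 2.62 and 2.44 FPKM in CrT+/y animals 1 to 3 (log2 fold change -0.69, SE 0.13, adjusted p = 0.035 with limma). *Cmc2*, a protein of the same fold, was at 6.13, 5.88, 5.80 and 5.88 FPKM and at 7.17, 7.37 and 8.32 FPKM (-0.36, SE 0.0741, adjusted p = 0.042 with limma). *Taco1*, which activates translation of the mitochondrially encoded subunit 1, was at 8.09, 7.91, 8.05 and 7.11 FPKM and at 9.35, 9.30 and 10.1 FPKM (-0.30, SE 0.0718, adjusted p = 0.058 with limma). In these 3 genes the 2 genotypes did not overlap, and CrT+/y animal 3 lay among or above the other CrT+/y animals. *Pet117*, a chaperone of the complex, was at 15.1, 9.69, 11.5 and 12.6 FPKM and at 19.4, 17.5 and 14.5 FPKM, with CrT-/y animal 0 above CrT+/y animal 3 (-0.49, SE 0.147, adjusted p = 0.09 with limma). *Taco1* shares its locus with *Taco1os* on the opposite strand, and *Pet117* overlaps *Kat14* on its own strand.

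Without CrT+/y animal 3 these 4 genes were still called lower (adjusted p = 0.022 to 0.047 with limma), and *Surf1*, *Cox14*, *Cox17* and *Coa6* were called higher, that is 4 of 27 in each direction beside 18.4% lower and 10.3% higher of all genes tested in that fit. When single other animals were left out, *Coa4* lost its call only without CrT-/y animal 1 (adjusted p = 0.11 with limma). *Cmc2* lost it without CrT-/y animal 1, 2 or 3, *Taco1* without these or without CrT+/y animal 1, and *Pet117* without any of these or without CrT+/y animal 2, with adjusted p-values of 0.1 to 0.25 with limma. After upper quartile scaling *Taco1* and *Pet117* were not called (adjusted p = 0.10 and 0.12 with limma). Among 6 assembly factors of complex III none was called. *Ttc19* had the smallest p-value (-0.20, SE 0.0647, adjusted p = 0.11 with limma), with 28.8 to 32.5 FPKM in CrT-/y and 33.0 to 36.7 FPKM in CrT+/y animals. Of 8 genes for assembly, regulation or further subunits of the ATP synthase none was called, and *Atpif1*, the inhibitor that stops ATP hydrolysis, had the smallest p-value. It was at 71.0, 71.6, 74.0 and 77.1 FPKM in CrT-/y animals 0 to 3 and at 59.2, 59.1 and 72.6 FPKM in CrT+/y animals 1 to 3, the order of the c subunit genes (0.21, SE 0.0782, adjusted p = 0.14 with limma). *Ndufa4*, now counted as a subunit of complex IV, showed that order as well (0.21, adjusted p = 0.23 with limma). Of 6 listed subunits encoded by mitochondrial DNA, none was found among the deposited genes under the symbols searched, so they were not analysed.

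**Figure D5:**
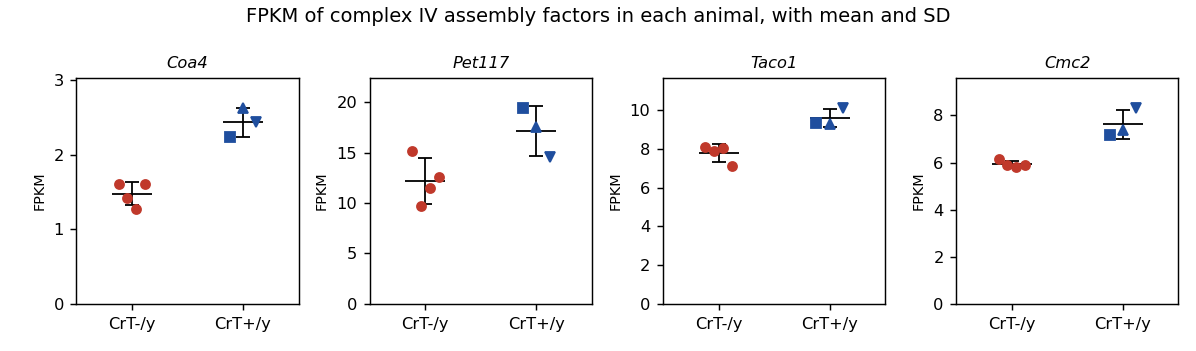
FPKM of the 4 assembly factors of complex IV called lower in CrT-/y animals, per animal, with the mean and SD of each genotype and axes starting at 0. The genotypes are separate in *Coa4*, *Taco1* and *Cmc2*, and CrT-/y animal 0 overlaps CrT+/y animal 3 in *Pet117*.

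The remaining complexes of the chain were set beside these values. In complex I, 30 of 36 tested genes had fitted differences above 0 with a median of 0.11, 2 were called higher (beside 2.9% of all tested genes), and in 26 (72.2%, beside 13.0%) CrT+/y animals 1 and 2 were the 2 lowest. The 4 genes of complex II had a median of 0.09, with 1 called lower, where the share over all tested genes was 7.25%. CrT+/y animal 3 was the highest CrT+/y animal in 32 of the 36 genes of complex I (88.9%) and in 3 of the 4 of complex II, beside 31 of the 42 genes described here and 33.4% of all tested genes. The differences between complexes were not tested.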

How the data were processed

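RNA from the cerebral cortex of 4 CrT-/y and 3 CrT+/y male mice was sequenced in paired-end mode after mRNA library preparation, with 1 library per animal. Per the labels and methods, the authors aligned the reads to mm10 with the Tuxedo protocol (Bowtie and Cuffnorm are named, without versions), kept unique alignments to known exons or junctions, and deposited FPKM per gene and animal. FPKM are scaled to transcript length and mapped fragments and are not counts, so no count model was used. Unique alignment can remove reads from genes with processed pseudogenes, which many of these genes have, and such values are uncertain.

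Groups and animal numbers were taken from the sample labels. Values were log2(FPKM + 0.1), genes averaging 1 FPKM or more over the 7 animals were kept (12988 of 24346, 5246 of the others being at 0 in all animals), and genotype was tested with limma 3.58.1 (R 4.3.3; moderation with a trend on expression; Benjamini-Hochberg adjustment over all tested genes; threshold 0.1 after the study's methods). Fold changes are CrT-/y over CrT+/y on the log2(FPKM + 0.1) scale, which compresses differences between low values. Positions, overlaps and lengths (median of the principal coding transcripts) were from GENCODE M21 of GRCm38, where 23310 symbols matched directly, 664 by synonym and 372 not at all. The length correction removed a lowess trend (span 0.3) of each animal's log2 deviations on transcript length. Promoter windows were from RefSeq. Other steps used Python 3.11.15, pandas 2.3.3, numpy 2.4.6 and scipy 1.17.1.

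Genes with values per animal were *Slc6a8*, genes past the threshold, the 3 smallest p-values and the most abundant gene of each complex, *Cyc1*, *Cycs*, the isoform families, and from each assembly list the genes past the threshold and the smallest p-value. *Atp5h*, *Atp5k* and *Atp5e* were added after their values were seen, and *Ndufa4* as a subunit outside the naming rule. The genes, the lists and the tests were chosen with earlier results of these data known, so counts are given beside the same share over all tested genes and no list was tested as a set. Alternatives were array weights, moderation without a trend, 1 or 0.01 added, no filter or a minimum mean of 5 FPKM, median centring, upper quartile scaling, quantile normalization, the length correction, the animal number as a block (alone or with that correction), and leaving out each animal.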

Additional observations from a re-analysis of the deposited data

Results flagged for a closer look

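For 3 of the 45 genes, 1 of the 4 CrT-/y animals lay far from the other 3, with the gap to its nearest neighbour divided by the range of the 4 above Dixon's 95% critical value. In *Atp5f1* this ratio was 0.953, with CrT-/y animal 0 at 123 FPKM and the other 3 at 115 to 116 FPKM, all below the CrT+/y animals. In *Atp5g3* it was 0.865, with CrT-/y animal 3 at 316 FPKM and the others at 286 to 290.2 FPKM. In *Uqcrq*, a small subunit of complex III, it was 0.916, with CrT-/y animal 2 at 194 FPKM and the others at 181 to 183 FPKM. A different animal was apart in each gene. Chance gives such a gap in about 1 in 20 groups, and 45 groups were examined.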

How the results depend on the processing

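The number of genes called higher, 0 of 42 with all animals, was 1 after quantile normalization (*Cox5b*), 3 after upper quartile scaling (*Atp5c1*, *Atp5j* and *Cox7a2l*) and 10 with array weights, and ranged from 0 to 21 when single animals were left out, with 21 without CrT+/y animal 3 and 0 otherwise. Array weights gave CrT+/y animal 3 a weight of 0.339, the lowest of the 7. The number called lower, 1 (*Atp5f1*), was 3 with a mean of at least 5 FPKM (with *Cycs* and *Uqcrb*), 2 with array weights, and 0 with no filter, quantile normalization, upper quartile scaling, median centring or moderation without a trend, and ranged from 0 to 3 when single animals were left out. Genes whose groups did not overlap, 3 with all animals (1 higher and 2 lower), were 6 (5 and 1) after quantile normalization (beside 9.8% and 10.8% of all tested genes), 5 (4 and 1) after upper quartile scaling (beside 12.5% and 8.1%), and 6 (4 and 2) after length correction (beside 9.9% and 10.8%). When single animals were left out their number was 4 to 28, with 24 higher and 4 lower without CrT+/y animal 3 (beside 16.4% and 27.4%) and 1 or 2 higher and 2 to 4 lower otherwise (beside 7.73 to 10.9% and 16.6 to 20.9%). Leaving out single animals gave medians of -0.001 to 0.142 in complex III, 0.004 to 0.164 in complex IV and 0.069 to 0.231 in the ATP synthase. With CrT+/y animal 2 as the only wild type the medians of complexes III and IV were 0.206 and 0.237, and with CrT+/y animal 3 as the only one the medians of complexes III, IV and the ATP synthase were -0.126, -0.036 and -0.091. Animals of the same number had r = -0.0781, 0.046 and -0.051 over genes, and animals of different numbers had r from -0.202 to 0.247. With so few animals these values cannot decide whether the numbers pair the animals. With a block on the number, 0 of the 42 genes were called in either direction, while *Slc6a8* was called (adjusted p = 0.028 with limma). The share over all tested genes in this fit is not given. CrT-/y animal 0 has no CrT+/y animal of its number, so the block takes it out of the comparison. The medians were 0.056, 0.079 and 0.144, and with the length correction added that of complex IV was -0.033. Upper quartile scaling, quantile normalization and median centring moved the median log2 fold change of all tested genes from -0.033 to 0.028, -0.002 and 0.004, and the split of all calls from 377 higher and 941 lower to 741 and 463 under the first and 528 and 555 under the second. Signs turned for genes near 0. After length correction this was so for *Cox8a* (-0.015), *Cox6a1* (-0.078), *Cox6b1* (-0.010), *Cox7a2* (-0.079), *Atp5d* (-0.006) and *Cox6c* (-0.031). With the replicate block it was so for *Atp5b* (-0.022) and *Cox6a1* (-0.003), and with block and length correction for *Cox8a* (-0.033), *Cox6a1* (-0.118), *Cox6b1* (-0.003), *Cox7a2* (-0.051), *Atp5d* (-0.003), *Atp5l* (-0.002), *Cox6c* (-0.034) and *Uqcrfs1* (-0.002). *Cox6a2* turned to 0.030 after quantile normalization, 0.055 after upper quartile scaling, 0.031 after median centring and 0.030 with array weights, and *Uqcrc2* to 0.012 after upper quartile scaling. With single animals left out the range held both signs for *Atp5b* (-0.026 to 0.050), *Cyc1* (-0.046 to 0.120), *Cox6a1* (-0.040 to 0.089), *Cox6a2* (-0.128 to 0.159), *Cox7a2* (-0.044 to 0.098), *Atp5d* (-0.043 to 0.123), *Atp5o* (-0.002 to 0.180), *Cox6c* (-0.021 to 0.164), *Uqcrc1* (-0.001 to 0.142) and *Uqcrfs1* (-0.030 to 0.088). The cause of these changes was not tested. Over the tested genes named here and the alternatives, 819 single-gene values kept their sign and side of the threshold, 49 passed it only under the alternative, 37 lost a call and 41 changed sign.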
